A study of Homo sapiens with 8 samples.

Results

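The genes described here are 37 members of the NF-κB pathway and its inflammatory output, taken by symbol from the deposited count table of 78932 gene IDs: chemokines, cytokines, receptors and adaptors, NF-κB subunits, inhibitors and feedback genes, and survival and stress genes. All 37 were found, and 36 were tested among 24289 genes; CXCL3 had no count in any library. NF-κB is a family of dimeric transcription factors held in the cytoplasm by IκB proteins. Signals from Toll-like, interleukin and tumour necrosis factor receptors lead to degradation of IκB, and the released dimers then induce chemokine, cytokine and survival genes together with their own inhibitors. In monocytic and leukaemic myeloid cells the pathway is known for driving inflammatory and survival genes, and many of its target mRNAs carry AU-rich elements that shorten their life.

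The samples were RNA from sucrose gradients of human acute myeloid leukaemia cells of the lines U937 and Molm13, given an OGFOD1 overexpression vector by lentivirus (labelled OE) or belonging to a control whose library names carry the letters Scr, which the labels do not explain. OGFOD1 is a prolyl hydroxylase of the ribosomal protein RPS23. Cells of every group were treated with cycloheximide before lysis, and each gradient was combined into a heavy pool, with 3 or more ribosomes per RNA, and a light pool of free ribonucleoproteins, monosomes and disomes. The groups OE heavy, control heavy, OE light and control light each held 1 library labelled U937 and 1 labelled Molm13, so n = 2 per group; the labels name no separate cultures or clones, and p-values measure only the spread between these 8 libraries.

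Several labels were not borne out by the libraries. OGFOD1 went against its label, with less of its mRNA where it was said to be overexpressed: 12.4 and 10.1 CPM (counts per 1e6 library counts, scaled by TMM) in the U937 OE heavy and light libraries against 60.2 and 49.8 CPM in the U937 controls, and 25.3 and 16.7 CPM against 44.4 and 33.0 CPM under the Molm13 label. Every direction below therefore goes by genotype labels that the targeted gene contradicts. The line labels hardly separated the libraries. Libraries of 1 group but different line labels correlated at 0.935 to 0.971 across genes. FLT3, HOXA9 and MEIS1, listed for leukaemia with KMT2A rearrangement, were at 14.9 CPM or more of the plain library total in all 8 libraries. Whether these genes should differ between the lines was not tested, so they do not decide whether a line label is right. The Molm13 control light library stood apart from the other light libraries: the mitochondrial rRNA MT-RNR2 took 11.2% to 12.8% of counts in those 3 and was not its top gene, and it correlated at 0.963 to 0.966 with the heavy libraries and at 0.935 to 0.943 with the light ones. Counts of calls and the values it moves most are given with and without it. Of 13 myeloid markers, 12 were at 1 CPM or more in all 8 libraries, CD14 was under 1 CPM in every one, and CD3E, CD2, CD7, MS4A1, PAX5, the erythroid markers, EPCAM, COL1A1 and COL1A2 were under 1 CPM as well. Summed myeloid markers ran from 1490 to 8430 CPM in the libraries labelled OE and from 1730 to 6620 CPM in the controls, and the T and NK cell list, led by NKG7, from 95 to 554 CPM and from 39.5 to 271 CPM. The myeloid sum is led by AZU1 and ELANE. Some single markers had higher values under the OE label and others lower ones. ITGAM had 37.3 to 53.8 CPM in the libraries labelled OE and 6.21 to 22.6 CPM in the controls. CTSS had 62.4 to 71.3 CPM and 25.1 to 40.9 CPM, both markers without overlap. Of all genes tested, 3.43% were higher and 2.96% lower under the OE label without overlap. CD68 had 64.6 to 210 CPM in the libraries labelled OE and 13.8 to 99.7 CPM in the controls, and CSF1R 20.9 to 42.4 CPM and 6.66 to 25.4 CPM. Means under the OE label were also higher for CD33 (117 against 84.1 CPM) and CEBPA (404 against 297 CPM). They were lower for MPO (20 against 33.9 CPM), FCGR1A (14.3 against 20.8 CPM), LYZ (363 against 426 CPM) and ELANE (1240 against 1830 CPM). AZU1 (1610 against 1710 CPM) and SPI1 (126 against 128 CPM) were slightly lower. The part of these markers in the genotype results below was not tested. Library totals ran from 25741930 to 89373133 counts.

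Levels across members spanned several orders of magnitude. Per kilobase of exon, the chemokine CCL5 was at the top with a median over the libraries of 407 CPM per kilobase and a range of 47.4 to 577. The urokinase receptor PLAUR followed at 78.8 (23.8 to 274), then TNFRSF1B, a tumour necrosis factor receptor, at 26.7 (8.68 to 54.2), the IκB gene NFKBIA at 20.8 (9.02 to 34.9) and NINJ1, a mediator of plasma membrane rupture, at 20.2 (6.65 to 29.7). The ranges of all these neighbours overlapped. NF-κB subunits lay lower, from 3.98 CPM per kilobase for RELA to 0.874 for NFKB2. SOD2 was left out of this order because its ID was not in the annotation used here.

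By CPM of the plain library total, 24 members were at 1 CPM or more in all 8 libraries. CXCL2 and CXCL3, neutrophil chemokines, were under 1 CPM in all 8. IRAK2, a kinase of Toll-like receptor signalling, and BIRC3, a ubiquitin ligase that protects from cell death, were under 1 CPM in 7 libraries; EBI3 and PTGS2 were so in 6, IL1B in 4, CCL2, CCL4 and TRAF1 in 2, and CCL24, CXCL8 and NFKBIZ in 1. A count of 0 allowed up to 0.0336 CPM in the deepest library and 0.117 CPM in the shallowest, for counting error only.

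Promoters are shown for 4 members because they carry a match to the κB consensus, the 10-base site bound by NF-κB dimers, and because the genotype values of the genes differ. CCL20 was called between genotype labels, and EBI3, with the highest log2 fold change of the members at 2.78, missed the threshold. TNFAIP3, at 0.84, missed it too. NFKBIA had a smaller log2 fold change of 0.38, also short of the threshold, against a median of -0.05 over all genes. The sequences are from RefSeq on GRCh38.p14, 5′ to 3′ on the gene's strand, with 250 bases before and 50 after the transcript start, and capitals mark the κB matches.
CCL20 promoter (chr2:227813592-227813891, plus strand): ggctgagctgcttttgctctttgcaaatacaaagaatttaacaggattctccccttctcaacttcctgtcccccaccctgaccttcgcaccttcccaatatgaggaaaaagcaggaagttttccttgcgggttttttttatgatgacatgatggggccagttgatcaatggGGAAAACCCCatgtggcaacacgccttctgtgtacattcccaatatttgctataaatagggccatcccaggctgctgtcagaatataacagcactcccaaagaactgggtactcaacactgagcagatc
TNFAIP3 promoter (chr6:137867009-137867308, plus strand): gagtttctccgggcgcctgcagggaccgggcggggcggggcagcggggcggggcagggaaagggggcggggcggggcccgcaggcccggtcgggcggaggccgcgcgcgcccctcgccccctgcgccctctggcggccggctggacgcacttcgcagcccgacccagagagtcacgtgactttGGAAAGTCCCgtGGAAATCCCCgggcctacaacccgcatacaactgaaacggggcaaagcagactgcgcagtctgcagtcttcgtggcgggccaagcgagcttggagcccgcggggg
NFKBIA promoter (chr14:35404700-35404999, minus strand): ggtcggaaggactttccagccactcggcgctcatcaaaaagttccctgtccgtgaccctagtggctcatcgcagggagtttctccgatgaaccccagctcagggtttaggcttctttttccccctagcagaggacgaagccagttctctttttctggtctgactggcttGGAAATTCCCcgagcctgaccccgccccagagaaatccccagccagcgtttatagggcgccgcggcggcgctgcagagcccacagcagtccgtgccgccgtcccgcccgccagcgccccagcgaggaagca
EBI3 promoter (chr19:4229273-4229572, plus strand): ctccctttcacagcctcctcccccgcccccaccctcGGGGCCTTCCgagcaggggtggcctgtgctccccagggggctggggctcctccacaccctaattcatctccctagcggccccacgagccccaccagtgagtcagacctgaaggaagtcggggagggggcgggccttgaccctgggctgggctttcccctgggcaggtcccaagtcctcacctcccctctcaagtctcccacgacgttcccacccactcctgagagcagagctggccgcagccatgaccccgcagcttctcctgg

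The matches began at -79 from the start in CCL20, at -67 and -55 in TNFAIP3, at -81 in NFKBIA and at -214 in EBI3. Promoter windows were held for 31 members, and 14 of them (45.2%) had a match on either strand, overlapping matches included, against 13.3% of all genes with a window and 11.3% of all windows. The others with a match were REL, CFLAR, NFKBIZ, CXCL3, CXCL2, NFKB1, CD83, NFKB2, BIRC3 and BCL3. ICAM1, CCL24, NINJ1, CXCL8 and TNF had windows with no match. CCL2, CCL4, CCL5, NFKBIE, RELB and IER3 had no window. The letters searched were GGGRNNYYCC on either strand, where R is A or G, Y is C or T and N is any base. A match describes these letters and does not show binding. Sites that differ from them by a base were not counted, so a window with no match can still hold a κB site.

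Between genotype labels over both pools, 4 of the 36 tested members rose in the libraries labelled OE and none fell: the chemokines CCL20 and CCL24, the adhesion molecule ICAM1 and NINJ1 (edgeR, Benjamini-Hochberg over all genes). Over all 24289 genes, 2.01% were called higher and 2.36% lower; the higher share of all calls was 45.9%, and 61% with upper-quartile scaling. Of the members, 30 had a positive and 6 a negative log2 fold change, with a median of 0.72 against -0.05 over all genes, and 19 of 36 had an unadjusted p under 0.05 against 22.2% of all genes. The members were chosen with earlier results of these data known, so these shares describe the members and do not test them as a set. In these bulk libraries a larger share of expressing cells and more RNA per cell cannot be told apart. The OE and control ranges did not overlap for 2 members, CCL20 and the pattern receptor TLR2, both higher under the OE label, and for none that was lower, where 3.43% of all genes were higher and 2.96% lower without overlap.

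**Figure D1:**
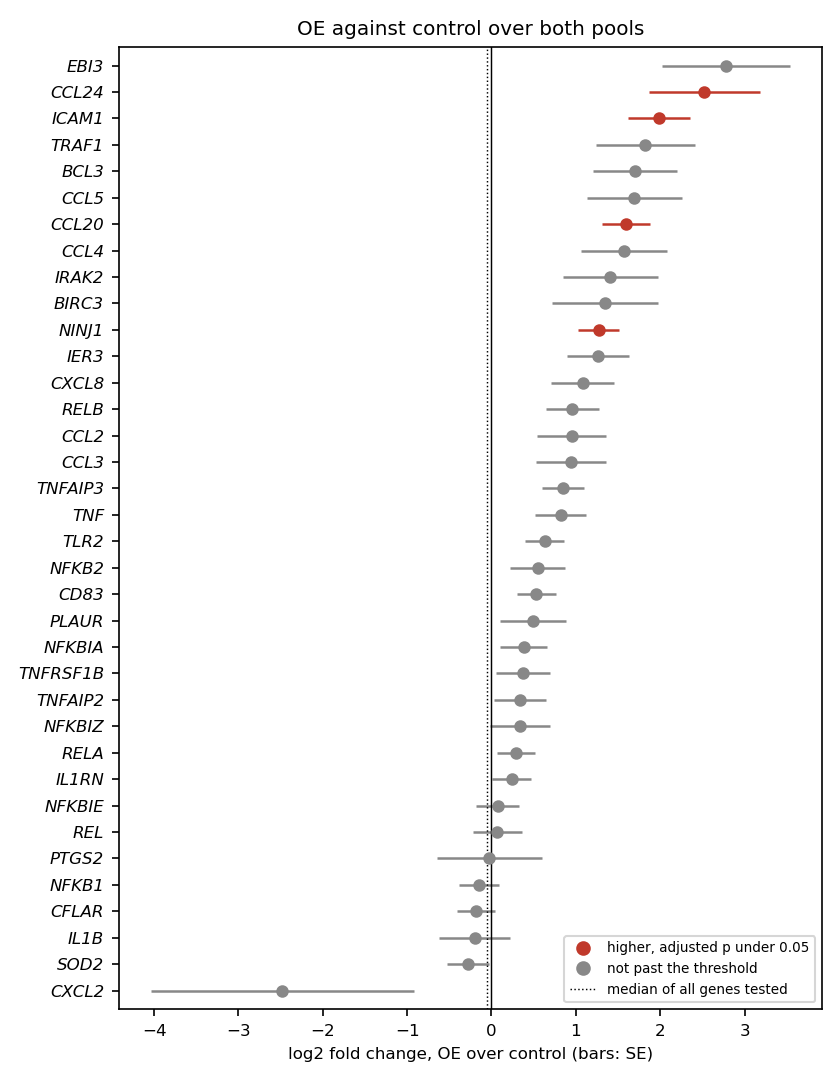
Log2 fold change of each tested member, libraries labelled OE over control, both pools (x axis, log2 units; bars are SE of the edgeR fit, n = 4 libraries per label). Red points passed the adjusted threshold and the dotted line is the median of all genes tested; 30 of 36 members lie right of 0, and CXCL2, far left, had 13 counts or fewer in every library.

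Chemokines recruit leukocytes, and 2 of the 8 tested rose. CCL20 (chromosome 2, 227805739 to 227817564, plus strand), which attracts lymphocytes and dendritic cells, had 9.72, 11.8, 9.51 and 10.4 CPM in the libraries labelled OE, here and below in the order U937 heavy, U937 light, Molm13 heavy and Molm13 light. The control libraries had 2.74, 2.39, 3.6 and 5.52 CPM in that order. Every library labelled OE was above every control library, at 10.4 ± 1.05 CPM against 3.56 ± 1.40 CPM (SD, n = 4 libraries). Those 4 are the heavy and light pools of 1 gradient per line label, so they are not independent. The edgeR fit put the difference at 1.60 on the log2 scale (SE 0.29, adjusted p = 0.015).

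CCL24 (chromosome 7, 75811665 to 75823356, minus strand), which attracts eosinophils, had 36.2, 8.35, 40.5 and 8.18 CPM in the libraries labelled OE, against 1.2, 0.392, 3.99 and 16.6 CPM in the controls. The groups overlapped because the Molm13 control light library was above both OE light libraries. The fitted log2 fold change reached 2.53 (SE 0.66, adjusted p = 0.0493 by edgeR), and neither DESeq2 nor edgeR on gradient sums called CCL24. Without the Molm13 control light library the log2 fold change was 4.08. The U937 control light library, at 0.392 CPM the lowest of all, was then the only light control.

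The other chemokines had values short of the threshold. CCL5, a T cell and monocyte attractant, had 873, 722, 764 and 580 CPM in the libraries labelled OE, against 108, 71.7, 468 and 652 CPM in the controls (log2 fold change 1.69, SE 0.56, adjusted p = 0.0979). The low values were the 2 U937 controls. CCL4 had 5.19, 1.79, 7.56 and 1.41 CPM against 0.473, 0.317, 1.51 and 3.84 CPM (1.57, SE 0.51, adjusted p = 0.0936). CXCL8, the main neutrophil attractant, stood at 1.08 (SE 0.38, adjusted p = 0.111), CCL2 at 0.95 and CCL3 at 0.95. CCL3 and CCL4 have near-identical copies, and with the counts of CCL3L3 and CCL4L2 added they stood at 1.64 (adjusted p = 0.106) and 2.17 (adjusted p = 0.0798); 74.6% of CCL3's exonic bases also lie in the annotated gene AC243829.4. Reads of overlapping genes cannot be told apart here, so the values of CCL3 are uncertain.

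**Figure D2:**
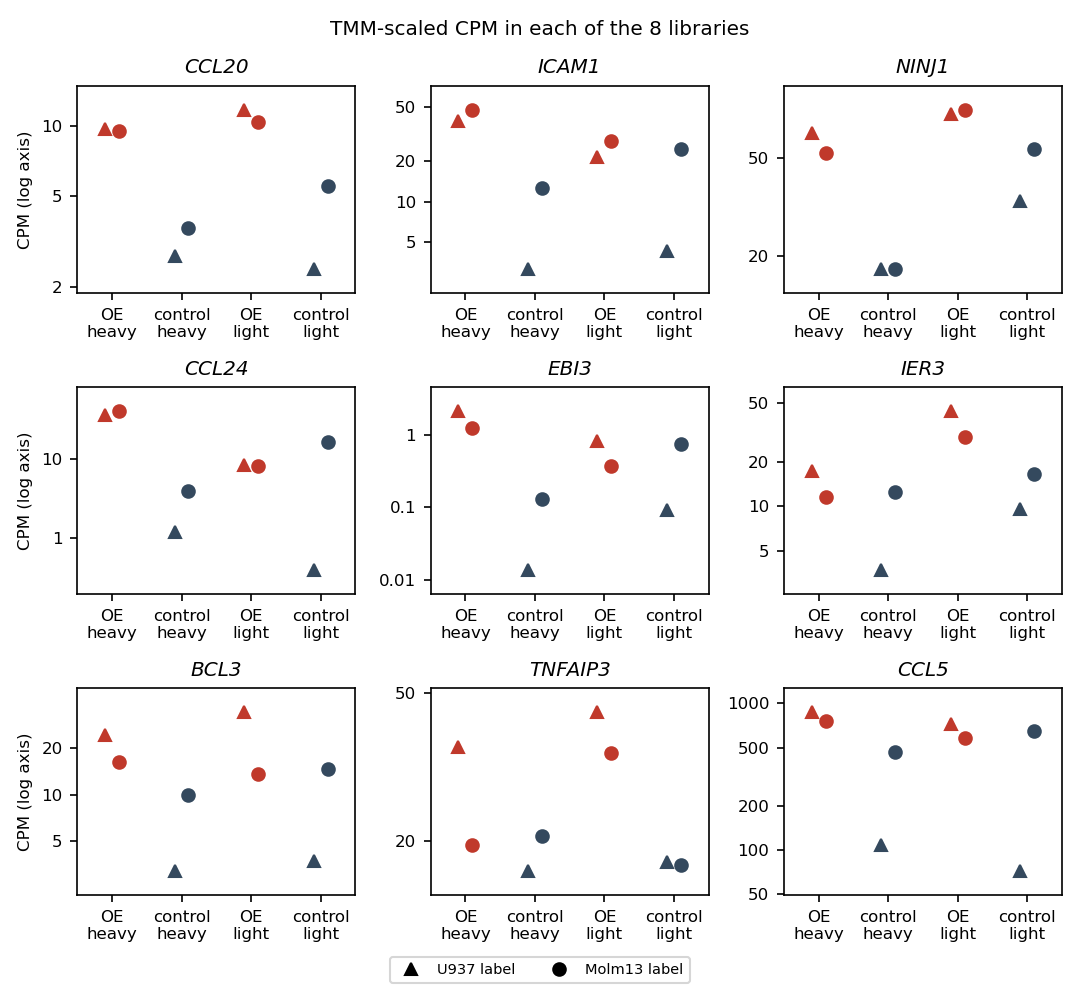
CPM (log axis, TMM-scaled) of 9 members in each of the 8 libraries; red marks libraries labelled OE, dark blue controls, triangles the U937 and circles the Molm13 label. CCL20 separates the labels in every library, while CCL24, EBI3 and CCL5 are low in both U937 controls and high in the Molm13 control light library.

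Among cytokines, receptors and adaptors, ICAM1 was the member that rose. ICAM1 (chromosome 19, 10270835 to 10286615, plus strand) binds leukocyte integrins and had 39.1, 21.2, 47.4 and 28.0 CPM in the libraries labelled OE, against 3.17, 4.29, 12.6 and 24.6 CPM in the controls. The U937 OE light value lay below the Molm13 control light value, and the U937 controls were the lowest. Its log2 fold change came to 1.99 (SE 0.37, adjusted p = 0.017); 23.6% of its exonic bases are shared with the annotated genes AC011511.5 and AC011511.2.

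EBI3, a subunit of dimeric interleukins, had 2.16, 0.833, 1.27 and 0.374 CPM in the libraries labelled OE, against 0.0135, 0.0933, 0.130 and 0.752 CPM in the controls. Its fitted value of 2.78 was the highest of the members and missed the threshold (SE 0.76, adjusted p = 0.0564). In the U937 heavy pool it had 173 counts in the library labelled OE and 1 in the control, a ratio of 160 with an exact 95% counting interval of 28.3 to 6355. The Molm13 heavy pair had 30 and 9 counts, a ratio of 9.79 (4.53 to 23.5). The Molm13 light pair went the other way, with 18 counts in the library labelled OE and 71 in the control. TNF, the founding inflammatory cytokine of the pathway, was at 0.82 (adjusted p = 0.135), the receptor antagonist IL1RN at 0.24 and IL1B at -0.20. The adaptor TRAF1 had 5.69, 2.58, 6.21 and 1.66 CPM in the libraries labelled OE, against 0.270, 0.411, 2.21 and 3.09 CPM in the controls (1.82, SE 0.58, adjusted p = 0.0884). IRAK2 stood at 1.41, TLR2 at 0.63, the maturation marker CD83 at 0.53, PLAUR at 0.49 and TNFRSF1B at 0.37, none past the threshold.

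None of the 5 NF-κB subunit genes passed (edgeR; 1 had an unadjusted p under 0.05). RELB, of the non-canonical branch, stood at 0.96 (SE 0.32, adjusted p = 0.0963), NFKB2 at 0.55, RELA, the main activating subunit, at 0.29, REL at 0.07 and NFKB1 at -0.14. RELA ran from 20.9 to 36.2 CPM in U937 OE light and heavy and from 19.9 to 25.6 CPM in Molm13 OE light and heavy, against 18.1 to 23.0 CPM in the controls. None of the 6 inhibitors and feedback genes passed either, 2 having an unadjusted p under 0.05. BCL3, an atypical IκB that acts in the nucleus, had 24.5, 34.5, 16.4 and 13.7 CPM in the libraries labelled OE, against 3.16, 3.70, 9.99 and 14.8 CPM in the controls (1.70, SE 0.50, adjusted p = 0.0687). TNFAIP3, the ubiquitin-editing enzyme A20, had 35.8, 44.4, 19.5 and 34.4 CPM, against 16.6, 17.6, 20.6 and 17.3 CPM (0.84, SE 0.25, adjusted p = 0.070). NFKBIA, the classical inhibitor, stood at 0.38 (SE 0.28), TNFAIP2 at 0.34, the nuclear IκB NFKBIZ at 0.34 and NFKBIE at 0.08.

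Of the survival and stress genes, NINJ1 (chromosome 9, 93121489 to 93134288, minus strand) rose. It had 63.3, 75.5, 52.3 and 78.6 CPM in the libraries labelled OE, against 17.6, 33.4, 17.6 and 54.6 CPM in the controls. Only the Molm13 OE heavy and Molm13 control light values crossed, and the fit put the difference at 1.27 on the log2 scale (SE 0.24, adjusted p = 0.019). IER3, an immediate early gene linked to survival, had 17.4, 44.3, 11.5 and 29.3 CPM in the libraries labelled OE, against 3.69, 9.67, 12.5 and 16.5 CPM in the controls (1.26, SE 0.37, adjusted p = 0.0679), with 26.5% of its exonic bases shared with IER3-AS1. BIRC3 stood at 1.34, PTGS2, the inducible prostaglandin synthase, at -0.03, the caspase inhibitor CFLAR at -0.18 and the mitochondrial superoxide dismutase SOD2 at -0.28. SOD2 was placed in the annotation by symbol only. There 90.5% of its exonic bases are shared with other entries, ACAT2, SOD2-OT1 and WTAP among them, so its values are uncertain.

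These calls treat the heavy and light pool of 1 gradient as if they were independent, and they depended on single libraries. With the counts of each of the 4 gradients summed, edgeR called none of the members (14 at an unadjusted p under 0.05), with adjusted p = 0.116 for CCL20 and for NINJ1, 0.133 for ICAM1 and 0.182 for CCL24. Without the Molm13 control light library, 19 members were called, all higher, the 4 among them, while calls over all genes went up to 12.9%, against 4.37% with it. Without the U937 control heavy library no member and 0.226% of genes were called, without the U937 OE heavy library no member and no gene was called, and without the Molm13 OE heavy library only ICAM1 was.

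Within single pools no member passed the threshold by edgeR. In the heavy pool, OE over control, 14 of 36 members had an unadjusted p under 0.05, against 15.1% of all genes, and 0% of all genes were called higher and 0.00412% lower; DESeq2 called 7 members and limma voom 0. The members' median was 0.90 against -0.03 over all genes, and it was also 0.90 with CXCL2, which had no count in either OE heavy library, at its bound. EBI3 had the highest fitted value at 4.79 (SE 1.10, adjusted p = 0.0837). Other values were 4.26 for CCL24 (SE 0.94, adjusted p = 0.0787), 2.91 for CCL4 (SE 0.72, adjusted p = 0.0964), 2.80 for ICAM1 (SE 0.52, adjusted p = 0.074), 2.77 for TRAF1, 1.94 for CCL5, 1.80 for BCL3 and 1.72 for NINJ1 (SE 0.35, adjusted p = 0.074). Without the Molm13 control light library 11 members and 5.96% of all genes were called in this comparison. In the light pool 8 of 36 members had an unadjusted p under 0.05, against 14.8% of all genes, 0% of genes were called in either direction, DESeq2 called 3 members and limma voom 0, and the median was 0.64 against -0.05. Light-pool values were 1.60 for BCL3, 1.57 for IER3, 1.56 for CCL20, 1.44 for CCL5, 1.2 for TNF, 1.17 for ICAM1 and 0.79 for CCL24. Without the Molm13 control light library 5 members and 2.12% of all genes were called in the light pool: CCL24 at 4.13 (adjusted p = 0.00214), CCL5 at 2.98 (adjusted p = 0.0126), BCL3 at 2.75 (adjusted p = 0.0172), CCL20 at 2.19 (adjusted p = 0.018) and ICAM1 at 2.09 (adjusted p = 0.024). Those light values set both libraries labelled OE against the U937 control alone.

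The interaction asks whether the genotype difference was larger in the heavy than in the light pool. No member and no gene was called by edgeR (0% higher and 0% lower), 5 of 36 members had an unadjusted p under 0.05, against 5.89% of all genes, and DESeq2 and limma voom called no member. The 5 were EBI3 at 4.02 (SE 1.37), CCL24 at 3.47 (SE 1.21), CCL4 at 2.67 (SE 0.98), PLAUR at 1.94 (SE 0.78) and ICAM1 at 1.63 (SE 0.69), each with adjusted p = 0.791. Without the Molm13 control light library 0 members had an unadjusted p under 0.05. CCL20 stood at 0.06 (SE 0.56), so a difference between pools of its genotype value was not detectable in these libraries.

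Within each line label and pool there was 1 library per arm, so the values have no test. A difference of 1 or more on the log2 scale was counted among members with at least 1 CPM in either library. Under the U937 label, 21 of 32 members were higher in the OE heavy library and 0 lower, where 12.6% of genes were higher and 7.42% lower. In the light pool 18 of 33 were higher and 0 lower, where 12.2% of genes were higher and 10.9% lower. Under the Molm13 label, 10 of 32 were higher in the OE heavy library and 1, IL1B, lower, where 11% of genes were higher and 10.4% lower. In the Molm13 light pool, whose control is the library that stood apart, 2 were higher (REL and PTGS2) and 4 lower (CCL2, CCL4, CCL24 and PLAUR), where 10.1% of genes were higher and 18.1% lower. The members' medians were 1.38, 1.17, 0.56 and -0.06 in these 4 pairs, against 0.02, -0.09, -0.02 and -0.11 over all genes.

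**Figure D3:**
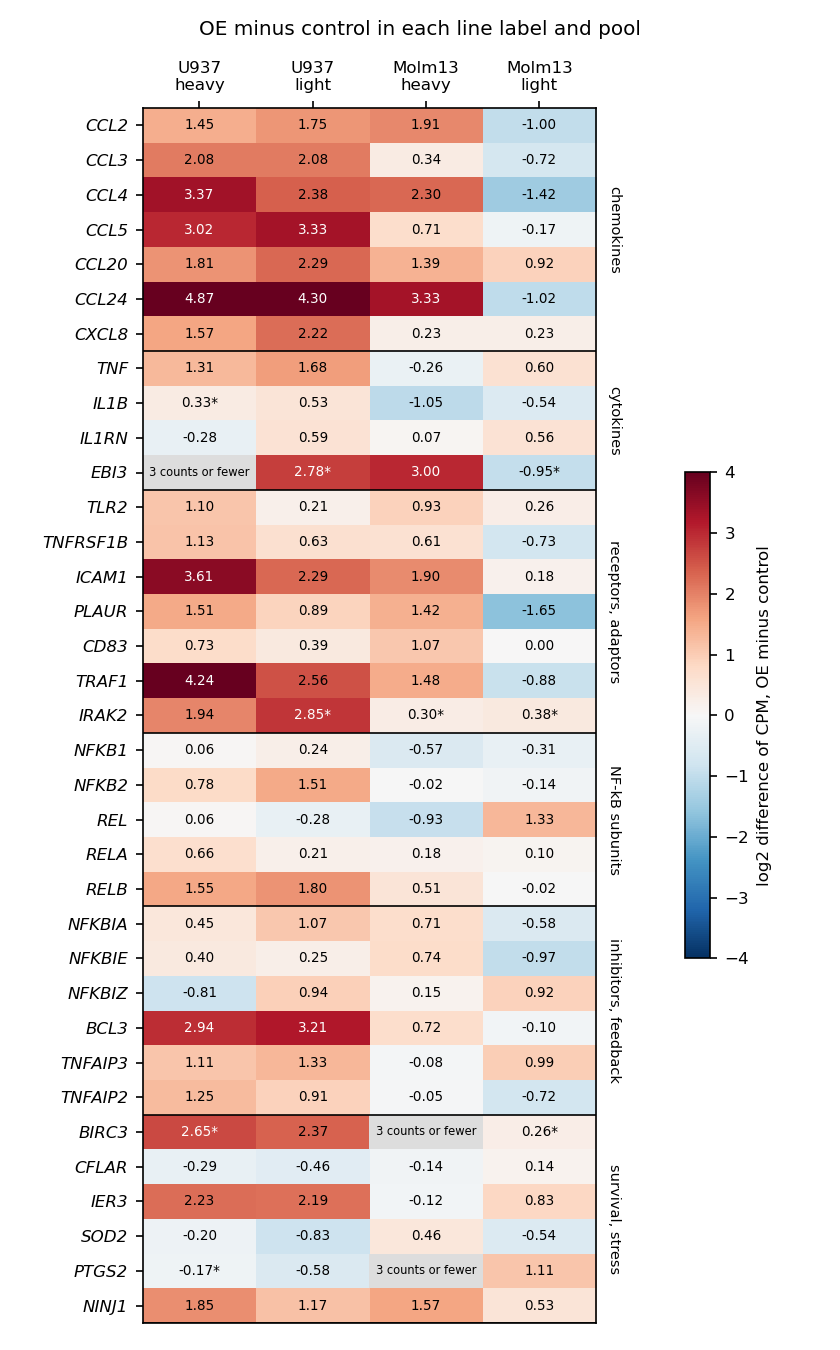
Log2 difference of CPM, libraries labelled OE minus control, for 35 members (rows, by role) in each line label and pool (columns); values are printed, colours saturate at 4, a star marks a member under 1 CPM in both libraries and grey cells have 3 counts or fewer in a library. Red runs through both U937 columns and most of the Molm13 heavy column, while the Molm13 light column holds 17 negative values among its 32 members at 1 CPM.

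CCL5 and BCL3 are given as examples, chosen after their values were seen, in which the line labels stood apart. CCL5 differed by 3.02 and 3.33 in the U937 heavy and light pools, and by 0.71 and -0.17 in the Molm13 pools. BCL3 differed by 2.94 and 3.21 under the U937 label and by 0.72 and -0.10 under the Molm13 label. For both genes the U937 control libraries held the lowest values of all 8. A line label by genotype term added after the data were seen gave BCL3 a value of 2.78 (SE 0.51, adjusted p = 0.031), the only member called, where 0.124% of genes were called higher and 0.00823% lower. TRAF1 was at 3.21 (adjusted p = 0.0564), EBI3 at 3.97 and CCL24 at 3.36. That term rests on the spread between pools of a gradient, with 1 gradient for each line and genotype label.

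Between pools, 14 of 36 members differed over all libraries, 6 higher and 8 lower in the heavy pool, where 15.8% of all genes were called higher and 12.8% lower; the higher share of all calls was 55.3%, and 39.7% with upper-quartile scaling. That scaling moved the median of all genes to -0.22, against -0.04, and called 12 members, without NFKB1, NFKBIA and PLAUR and with TNF on the light side. Because each library is scaled to its own total, a difference is in the share of the pool's RNA, not in the amount of RNA. By role, 2 of 7 receptors and adaptors were higher and none lower, 3 of 6 inhibitors and feedback genes higher and 1 lower, 1 of 5 subunits each way, and none of the 6 survival and stress genes higher and 4 lower; 1 of 8 chemokines and 1 of 4 cytokines were lower. The heavy and light ranges did not overlap for 4 members that were higher (NFKB1, RELA, NFKBIA and NFKBIE) and 2 that were lower (NFKBIZ and PTGS2), where 9.12% of all genes were higher and 9.81% lower without overlap.

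NFKBIE, the IκB protein epsilon, had 57.6, 43.7, 69.3 and 41.5 CPM in the heavy pools, here and below in the order U937 OE, U937 control, Molm13 OE and Molm13 control. The light pools had 21.8, 18.4, 20.2 and 39.6 CPM, and the log2 fold change, heavy over light, was 1.09 (SE 0.26, adjusted p = 0.00773). NFKBIA had 74.8, 54.9, 82.7 and 50.4 CPM in the heavy pools, against 44.9, 21.4, 32.3 and 48.4 CPM in the light pools (0.82, SE 0.28, adjusted p = 0.0428). NFKB1, the precursor of the p50 subunit, had 15, 14.5, 10.8 and 16.1 CPM against 9.19, 7.78, 7.64 and 9.48 CPM (0.72, SE 0.24, adjusted p = 0.0387). For all 3 genes the heavy values were above the light ones in every library.

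TNFRSF1B had 204, 92.8, 169 and 110 CPM in the heavy pools, against 50.6, 32.7, 65.3 and 108 CPM in the light pools (1.19, SE 0.32, adjusted p = 0.0153). TNFAIP2, a gene induced by tumour necrosis factor, had 33.4, 14, 28.2 and 29.1 CPM against 11.7, 6.21, 10.8 and 17.9 CPM (1.17, SE 0.30, adjusted p = 0.0125). PLAUR had 690, 243, 1220 and 459 CPM against 197, 106, 204 and 638 CPM (1.14, SE 0.38, adjusted p = 0.0399). In all 3 the Molm13 control light library was the highest of the light libraries.

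On the light side, PTGS2 had 0.188, 0.216, 0 and 0.0721 CPM in the heavy pools, against 0.814, 1.23, 0.999 and 0.445 CPM in the light pools (-2.98, SE 0.66, adjusted p = 0.00561). The heavy library at 0 is the shallowest, and PTGS2 was low throughout. CXCL8 had 2.30, 0.756, 2.11 and 1.80 CPM against 8.99, 1.90, 5.45 and 4.63 CPM (-1.55, SE 0.36, adjusted p = 0.00784). NFKBIZ had 0.600, 1.08, 1.77 and 1.60 CPM against 5.04, 2.61, 4.14 and 2.17 CPM (-1.49, SE 0.37, adjusted p = 0.0101). Each of the 3 was lower in the heavy library of every gradient.

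REL, a subunit of lymphoid and myeloid cells, had 14, 13.5, 7.48 and 14.3 CPM in the heavy pools, against 22.8, 27.8, 35.0 and 13.9 CPM in the light pools (-1.01, SE 0.29, adjusted p = 0.0196); 43.3% of its exonic bases are shared with AC010733.2. BIRC3 had 0.763, 0.0945, 0.127 and 0.216 CPM against 3.12, 0.579, 0.770 and 0.636 CPM (-1.97, SE 0.58, adjusted p = 0.0232). IER3 had 17.4, 3.69, 11.5 and 12.5 CPM against 44.3, 9.67, 29.3 and 16.5 CPM (-1.04, SE 0.35, adjusted p = 0.041). For BIRC3 and IER3 the heavy library was the lower one in every gradient, and for REL in all but the Molm13 control gradient. NINJ1 had 63.3, 17.6, 52.3 and 17.6 CPM in the heavy pools, against 75.5, 33.4, 78.6 and 54.6 CPM in the light pools (-0.86, SE 0.24, adjusted p = 0.0194). IL1RN had 11.3, 13.7, 11.7 and 11.2 CPM against 28.8, 19.2, 18.9 and 12.8 CPM (-0.68, SE 0.23, adjusted p = 0.0426). Both were lower in the heavy library of every gradient, NINJ1 least so in the U937 OE gradient and IL1RN least so in the Molm13 control gradient.

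**Figure D4:**
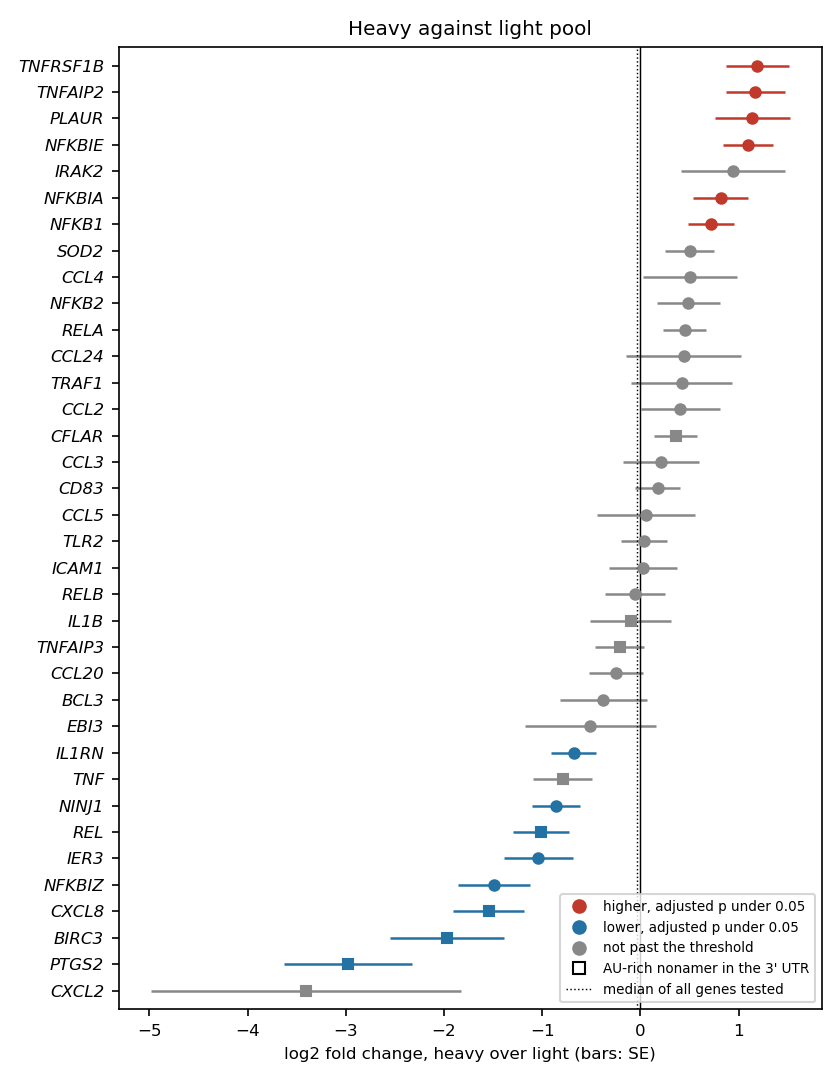
Log2 fold change of each tested member, heavy over light pool (x axis, log2 units; bars are SE of the edgeR fit, n = 4 libraries per pool). Red points were higher and blue points lower past the adjusted threshold, squares carry an AU-rich nonamer in the 3′ UTR, and the dotted line is the median of all genes tested; 4 of the 8 blue points and none of the 6 red points are squares.

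Without the Molm13 control light library, 20 members were called between pools, with 38% of all genes called, against 28.6% with it, and all 14 were among them; CCL2, CCL4, CCL5, CCL24 and IRAK2 were added on the heavy side and CXCL2 on the light side. CCL24 then stood at 2.25, against 0.44 with that library. Leaving out any other library gave fewer calls than 14: 4 without the U937 control heavy library (CXCL8, TNFAIP2, PTGS2 and NINJ1), 6 without the U937 OE heavy or the Molm13 OE heavy library, 8 without either OE light library, 9 without the Molm13 control heavy library, and 10 without the U937 control light library. With the gradient as a random block in limma voom, 9 of the 14 were called, and NFKBIA (adjusted p = 0.0522), IL1RN (0.0589), BIRC3 (0.0656), NFKB1 (0.0665) and IER3 (0.0851) were not.

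AU-rich nonamers, a core of the elements bound by mRNA decay factors, are shown for some of the members because 4 of those lower in the heavy pool carry one. The letters searched in the longest annotated 3′ UTR of each gene, on its own strand and with overlaps counted, were TTATTTATT (U in the RNA), and capitals mark them in the first site of the UTRs chosen, with 29 bases shown from the GENCODE transcript, 5′ to 3′. PTGS2, CXCL8 and REL were lower in the heavy pool; TNF and CXCL2 are shown for their clusters of overlapping nonamers.
PTGS2: atgatcatatTTATTTATTtatatgaacc
CXCL8: atgtaaagtaTTATTTATTtgaatctaca
REL: tgatatataaTTATTTATTttgccctttt
TNF: gcacttgtgaTTATTTATTATTTATTTAT
CXCL2: agtcttctatTTATTTATTTATTTATTTA

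A nonamer was found in 10 of the 37 members. It was in 4 of the 8 members called lower in the heavy pool, in 0 of the 6 called higher, and in 5 of the 22 tested members with no call: CXCL2, TNF, IL1B, TNFAIP3 and CFLAR. TNF, with 5 nonamers counted with overlap, stood at -0.79 (SE 0.30, adjusted p = 0.0643). Among all tested genes with a 3′ UTR, 91.4% had no nonamer, with a median heavy over light value of 0.19, and 9.93% of them were called lower. Genes with 1 nonamer had a median of -0.20 and 16.5% called lower, and genes with 2 or more had a median of -0.20 and 19.1% called lower. Their UTRs were also longer, with a median of 3080 bases with 1 nonamer and 3973 bases with 2 or more, against 1402 bases with none; the part of length was not tested.

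Between line labels, U937 over Molm13, no member passed by edgeR and 7 of 36 had an unadjusted p under 0.05, against 11.8% of all genes; 0% of all genes were called in either direction, DESeq2 called 3 members and limma voom 0. The members' median was -0.33, against 0.000598 over all genes, and 27 of 36 values were negative. CCL2 stood at -1.94 (SE 0.43, adjusted p = 0.186), followed by CCL24 at -1.48 and CCL3 at -1.35. ICAM1 stood at -1.28 (SE 0.36, adjusted p = 0.30).

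Other genes of the pathway were read from lists chosen with earlier results of these data known. Of 46 tested genes of the signalling machinery, none was called between genotype labels over both pools by edgeR. An unadjusted p under 0.05 was found for 6 of them, against 22.2% of all genes, and their median was 0.18, against -0.05 over all genes. Between pools, 9 of the 46 were higher and 11 lower in the heavy pool, where 15.8% of all genes were called higher and 12.8% lower. The inhibitor NFKBIB was higher at 1.70 (SE 0.27, adjusted p = 0.0012). The ubiquitin ligase BIRC2 was lower at -1.41 (SE 0.25), the protease MALT1 at -1.35 (SE 0.24) and the kinase IRAK4 at -1.2 (SE 0.22). Of 39 tested other target genes, 6 rose in the libraries labelled OE and none fell, where 2.01% of all genes were called higher and 2.36% lower. The median of the 39 was 0.50. The 6 were the adhesion receptor CD44 at 1.32 (SE 0.26, adjusted p = 0.022), the coagulation initiator F3 at 1.23 (SE 0.26), the costimulator CD80 at 2.37 (SE 0.51), the costimulatory ligand TNFSF9 at 1.5 (SE 0.34), the chemokine receptor CCR7, and the chemokine CCL22. Of 12 regulators of mRNA decay, none was called between genotype labels by edgeR (6 at an unadjusted p under 0.05, against 22.2% of all genes). Log2 fold changes were 1.48 for ZFP36L1 (adjusted p = 0.0516), 0.91 for ZFP36, both binders of AU-rich elements, and -0.92 for KHSRP (adjusted p = 0.0579). Between pools, HNRNPD and ELAVL1, which also bind AU-rich elements, were higher in the heavy pool at 1.06 and 0.85, and the decay factors RC3H2 and RC3H1 were lower at -1.29 and -0.82, with TIA1 the other one lower.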

How the data were processed

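Polysome profiling RNA-seq gave 8 libraries. The authors deposited raw read counts per Ensembl gene ID; cutadapt, STAR and featureCounts on GRCh38 are named per the submitters' processing notes, with versions, annotation release and strand setting not given in the sources used here, so reads of overlapping, antisense or near-identical genes cannot be told apart. The members and lists were chosen with earlier results of these data known.

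Counts were filtered with filterByExpr, scaled by TMM and fitted with edgeR 4.0.16 quasi-likelihood tests (R 4.3.3) on pool and genotype group plus line label, with Benjamini-Hochberg adjustment over 24289 genes and a threshold of 0.05. The fit had 3 residual degrees of freedom and a biological coefficient of variation of 0.359. DESeq2 1.42.0 and limma 3.58.1 were alternatives. Group and replicate came from the labels; the line label is the replicate number and was kept as a block by design, and deviations of libraries with the same line label correlated at 0.0169 to 0.338. Within a line label and pool, 1 library per arm was compared by log2 CPM with a prior count of 2, and 1 CPM was the minimum. The counting interval of a ratio is an exact 95% binomial interval of the counts in the pair, scaled by library total and TMM factor. Intervals and floors of 3 counts cover counting error only. The 8 values are printed for members called in a test and for some of the smallest p, at most 4 genes of smallest p are described with values per other list, and all 37 members are named. Promoters came from RefSeq, positions and 3′ UTRs from GENCODE 29. Scripts were tested on simulated data. Alternatives were other scaling factors and tools, other filters, no block, gradient sums, and leaving out each library.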

Additional observations from a re-analysis of the deposited data

Results flagged for a closer look

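BCL3 had a larger genotype value under the U937 than under the Molm13 label in a term added after the data were seen: U937 minus Molm13 was 2.784 on the log2 scale (edgeR, SE 0.51, adjusted p = 0.031). Each line and genotype label has 1 gradient, so this p measures only the spread between pools of a gradient and does not show that the lines differ. With upper-quartile factors no member passed. NFKB1, NFKB2 and TNFAIP2 were picked because their log2 differences had opposite signs under the 2 line labels in both pools. In the order U937 heavy, U937 light, Molm13 heavy and Molm13 light, libraries labelled OE minus controls, NFKB1 had 0.057, 0.24, -0.57 and -0.31, NFKB2 had 0.78, 1.51, -0.023 and -0.14, and TNFAIP2 had 1.25, 0.91, -0.048 and -0.72. Several of these are near 0. The mean under U937 minus that under Molm13 was 0.588 for NFKB1, 1.22 for NFKB2 and 1.47 for TNFAIP2, and none passed the same edgeR term (adjusted p = 1, 0.892 and 0.474). The genotype labels are the ones that OGFOD1 contradicts, and the Molm13 light values rest on the control library that stood apart.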

How the results depend on the processing

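Between genotype labels over both pools, 4 members were called by edgeR as designed, 8 with upper-quartile factors, 11 with DESeq2, 7 with limma voom, 13 with no filter on low counts and 10 with the gradient as a random block in limma voom, whose estimated gradient correlation was -0.258. With that negative value the random block was not a stricter setting, calling 3172 genes against 1244 with plain limma voom. Its 10 calls therefore do not allow for pools that share a gradient. None was called with no replicate block, where 15 members had an unadjusted p under 0.05, nor on gradient sums, where 14 had. Leaving out 1 library at a time gave 0 to 19. Over all genes the main 1061 calls stood against 2679 with DESeq2, 2299 with no filter, 3172 with the random block, 116 with no block and 0 on gradient sums. DESeq2 did not call CCL24. In the heavy pool DESeq2 called 7 members, no filter 9, and leaving out libraries gave 0 to 11. In the light pool DESeq2 and no filter called 3 each, and leaving out libraries gave 0 to 5. For the interaction no filter called 1, and leaving out libraries gave 0 to 6, the 6 without the U937 control light library. Heavy against light, 14 members as designed stood against 9 with no replicate block, 9 with the random block (lost: NFKBIA, IL1RN, BIRC3, NFKB1 and IER3) and 4 to 20 when a library was left out. Between line labels DESeq2 called 3 and no filter 4. In single pairs, upper-quartile scaling gave 6 higher and 2 lower in Molm13 light and 0 lower in Molm13 heavy, where scaling by library total gave 2 lower. For line label by genotype, upper-quartile factors called 0, and leaving out libraries gave 1 to 10. Upper-quartile factors moved the median of all genes to -0.22, against -0.04, between pools, and to 0.11, against -0.05, between genotype labels in the light pool. For the genotype labels over both pools, 17 of 611 member values under alternatives changed sign, none of them of a called member. Where a count moved, the cause was not tested. CXCL2, with 0 to 13 counts per library, was too low for a fold in the heavy pool.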
